A study of Arabidopsis thaliana with 8 samples.

Results

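Among the array rows of an Arabidopsis thaliana series whose annotation lists several genes, 86 of 870 were selected for a higher signal in 1-week-old than in 4-week-old plants, out of 3439 rows in all. They were selected on the measured signals themselves. A row was taken if it lists 2 or more genes, if its mean signal over all 8 samples was at least 0.1 and under 2, if every 1-week sample lay above every 4-week sample, and if the 1-week mean was at least 2 times the 4-week mean. The 86 rows list 207 different genes, and a row may measure any of the genes it lists. The higher signal at 1 week is therefore what chose the rows, and the values below describe it without testing it.

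The plants were wild type, ecotype Columbia-0 (a common laboratory strain of Arabidopsis), and each age had 4 samples of total RNA, numbered 1 to 4. The samples differ by age alone in the labels, which name no treatment, no organ and no pooling of plants. Signals are in arbitrary units. Where separate plants are not stated, the spread between the 4 samples may be technical. Of 29 organ markers looked for, 1 was found, RCA for Rubisco activase, on a row shared with AT1G73110 that had 0.909 ± 0.128 at 1 week and 1.17 ± 0.204 at 4 weeks (SD, n = 4) and on another row near 0, so which organs the RNA came from was left unchecked.

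Between these ages a seedling with seed leaves and its first true leaves becomes a rosette with many expanded leaves. A seedling builds new plastids and mitochondria, lays down cell walls and makes amino acids and nucleotides for growth. A rosette is dominated by mature, exporting leaf tissue. Plant gene families often hold close copies, from duplication of neighbouring genes or of larger chromosome segments, and a hybridisation probe can bind transcripts of more than 1 copy.

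The rows were dim to moderate, with means over all samples from 0.121 to 1.99 (median 0.520). The 1-week mean ran from 0.189 to 3.69 (median 0.772) and the 4-week mean from 0 to 1.03 (median 0.220). The ratio of the means had a median of 3.26 over the 85 rows where it can be given, and was 3 or more in 47, 4 or more in 26 and 8 or more in 7. In 46 of these 85 rows the lowest 1-week sample was at least 2 times the highest 4-week sample. Whether fewer cells of a type or less RNA per cell lie behind a lower signal cannot be told apart in RNA of whole samples. In all, these rows made up 2.36% to 2.75% of the summed signal of a 1-week sample and 0.726% to 0.780% of that of a 4-week sample, while the sum over all rows ran from 3070 to 3374 with no such gap. In the signal range of the rule, 141 of 708 rows listing several genes (19.9%) had every 1-week sample above every 4-week sample, and the fold condition left 86 of them. The mirrored rule, for rows higher at 4 weeks, took 56 rows.

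**Figure D1:**
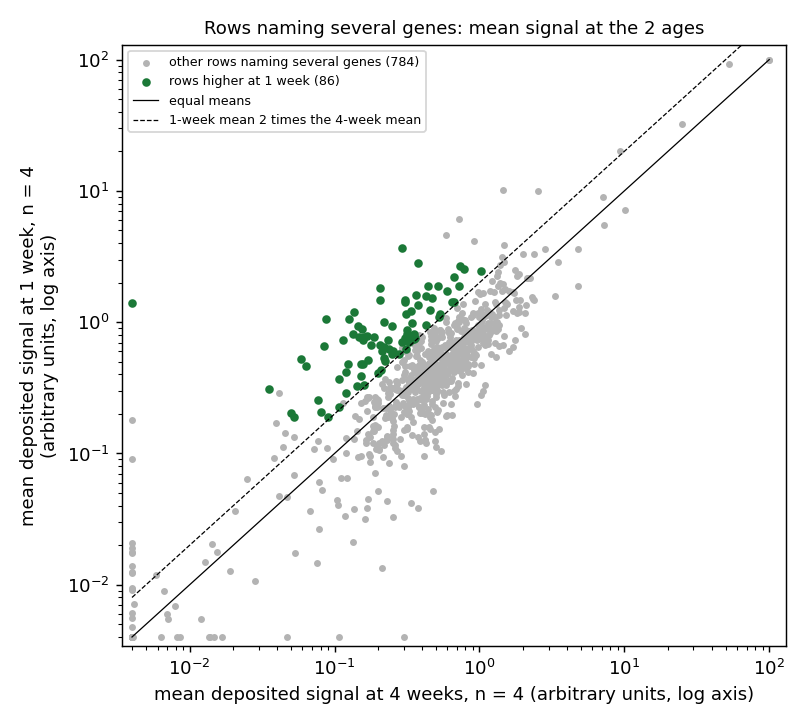
Mean deposited signal at 1 week (vertical) against 4 weeks (horizontal) for the 870 rows listing several genes, on log axes in arbitrary units, each point a row and each mean over 4 samples. The 86 selected rows (green) lie on or above the dashed line of a 2-fold ratio. Means under 0.004, including 0, are drawn at 0.004, as for the selected row at the left edge, which was at 0 in all 4-week samples.

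The rows with a gene symbol are described first, by the known roles of the genes. Of the 207 genes, 25 have a symbol of their own, on 17 rows, and the other 182 are listed by locus code, so no role is given for them except AT4G16360, for which the reference has the synonym KINbeta2. Among the rows with a symbol, that of a redox protein had the largest ratio. The row for TO2 and TO1, which encode thioredoxins of the o type, a class found in mitochondria, read 0.969, 1.1, 1.05 and 1.08 in 1-week samples 1 to 4 and 0.0748, 0.0502, 0.122 and 0.102 in 4-week samples 1 to 4. Its 1-week samples were all close to 1 and all far above its 4-week samples, with a ratio of means of 12. Another row with the same genes was dim and overlapped between the ages, as given below. The row for GrxC5, a glutaredoxin of the chloroplast, and AT2G20270 lay just past the fold condition. It read 0.424, 0.422, 0.460 and 0.411 in the younger plants and 0.259, 0.176, 0.177 and 0.220 in the older ones, a ratio of 2.06, which was 1.96 without 4-week sample 2. Another row with the same genes was higher at 4 weeks, as given below.

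The row for AT1G75335, OTC and PYRB lists genes of carbamoyl transfer for amino acid and nucleotide synthesis, though it may measure AT1G75335 instead. OTC encodes ornithine carbamoyltransferase of arginine synthesis, and PYRB encodes the aspartate carbamoyltransferase that begins pyrimidine synthesis. The row read 0.579, 0.802, 0.352 and 0.373 at 1 week, and 0, 0.172, 0.0468 and 0.0173 at 4 weeks. All 4-week samples were low and unequal, and the lowest 1-week sample was 2.05 times the highest of them. With the 0 included, the ratio of means was 8.94, and it ran from 6.70 without 4-week sample 1 to 24.7 without 4-week sample 2. The ages overlapped in a row for OTC and PYRB without AT1G75335, at 0.160 ± 0.0463 and 0.201 ± 0.0273 (SD, n = 4). Other rows that list these genes are given below.

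Gene expression in plastids was represented by 2 of the rows with a symbol. The brighter one lists OTP80, a pentatricopeptide repeat protein needed for RNA editing in the chloroplast, with AT5G43790 and AT4G37380. It read 2.04, 2.07, 1.68 and 1.72 at 1 week against 0.735, 0.665, 0.702 and 0.783 at 4 weeks, a ratio of 2.60. Here 1-week samples 1 and 2 were the higher ones. The row for FUG1, a translation initiation factor of the chloroplast, and AT4G11160 read 0.895, 0.784, 1.28 and 1.42 at 1 week and 0.407, 0.535, 0.435 and 0.719 at 4 weeks. The ages almost touched in it, since 1-week sample 2 exceeded 4-week sample 4 by a factor of 1.09. Its ratio was 2.09, and 1.88 without 1-week sample 4.

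LSMT-L, a relative of the methyltransferase that acts on the large subunit of Rubisco, was the one gene listed by 2 of the 86 rows. Its row with AT1G01920 and AT3G56570 read 1.57, 1.85, 2.00 and 2.07 at 1 week and 0.465, 0.540, 0.522 and 0.558 at 4 weeks (ratio 3.59). Its row with AT5G14260, AT3G55080, AT3G07670 and AT2G18850 was dimmer, with 0.467, 0.582, 0.472 and 0.405 against 0.170, 0.114, 0.102 and 0.109 (ratio 3.89). The rows share no other gene. Both were selected for a separation of the ages, so their likeness does not show which gene they measure. A search of symbols and synonyms for the words of 15 function classes found a transferase in 3 of the 86 rows, both LSMT-L rows and the OTC and PYRB row, and in 6 of the 708 rows in the signal range. It found a hydrolase in 0 and 10 rows, a redox enzyme in 1 and 5, a transcription factor in 1 and 3 and a kinase or phosphatase in 1 and 1, and the other 10 classes had no row among the 86 and at most 3 among the 708. The search misses genes whose names lack the words, such as OTP80 and BGLU46, and the shares were not tested.

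Starch, fatty acids and energy signalling were each represented by 1 of the rows with a symbol. PWD, the phosphoglucan water dikinase that phosphorylates starch for its breakdown, shares a row with AT5G01260. That row read 0.612, 0.417, 0.532 and 0.502 at 1 week and 0.220, 0.129, 0.227 and 0.107 at 4 weeks (ratio 3.02). The acyl-activating enzymes AAE15 and AAE16, which attach free fatty acids to acyl carrier protein, share a row that read 0.548, 0.615, 0.601 and 0.533 at 1 week and 0.257, 0.260, 0.225 and 0.261 at 4 weeks (ratio 2.29). Its samples were close together at both ages. Another row with the same genes overlapped between the ages, as given below. The row for AKINBETA1 and AT4G16360 (KINbeta2), subunits of the SnRK1 kinase that responds to energy shortage, read 0.694, 0.627, 0.880 and 0.752 against 0.328, 0.385, 0.375 and 0.328. Its ratio was 2.09, and 1.95 without 1-week sample 3.

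Secretion, vacuole and cell wall were each represented by 1 row with a symbol. PRA1.G1 and PRA1.G2, for prenylated Rab acceptors of vesicle traffic, share a row that read 1.27, 1.26, 1.96 and 1.86 at 1 week and 0.300, 0.420, 0.515 and 0.483 at 4 weeks (ratio 3.70). At both ages samples 3 and 4 were above samples 1 and 2. The row for AT1G62290 and APA1, an aspartic proteinase of the vacuole, read 0.946, 1.18, 1.18 and 1.51 against 0.309, 0.404, 0.374 and 0.259 (ratio 3.59). BGLU46 and BGLU45, neighbouring genes for glucosidases that act on the glucosides of lignin precursors, share a dim row that read 0.227, 0.209, 0.345 and 0.232 at 1 week and 0.0802, 0.0935, 0.0555 and 0.0778 at 4 weeks (ratio 3.30). Its 1-week sample 3 was above the rest.

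Rows for cell division and transcription were also present. BUB3.1 and BUB3.2, proteins of the checkpoint that holds mitosis until chromosomes are attached to the spindle, share a row with AT1G69400. It read 0.621, 0.592, 0.799 and 0.801 at 1 week and 0.218, 0.285, 0.340 and 0.327 at 4 weeks (ratio 2.40). The row for the bZIP transcription factors BZIP61 and BZIP34 with AT5G07160 and AT5G04840 read 0.636, 0.635, 0.880 and 1.00 at 1 week and 0.147, 0.175, 0.114 and 0.229 at 4 weeks (ratio 4.74). Samples 3 and 4 were the higher ones at 1 week. A further row lists SAY1 with AT4G23040 and AT4G10790, at 0.462, 0.546, 0.724 and 0.775 against 0.183, 0.195, 0.235 and 0.335 (ratio 2.64).

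**Figure D2:**
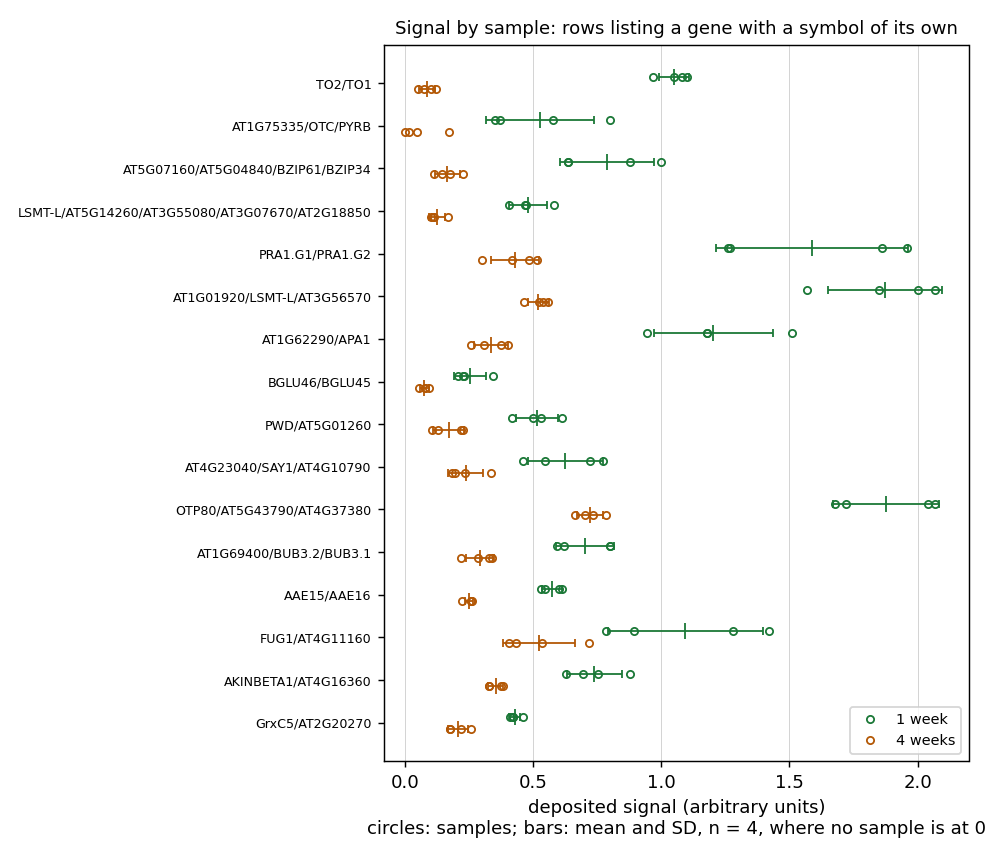
Deposited signal (horizontal, arbitrary units) of 16 rows that list a gene with a symbol, in 1-week (green) and 4-week (orange) samples, with circles for samples and bars for mean and SD of 4 samples where none is at 0. In each row the circles of the ages do not overlap, as the selection required; the gap is wide for TO2/TO1 and narrow for FUG1/AT4G11160.

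The largest separations were mostly in rows known by locus code. The row for AT1G78230, AT5G22320 and AT4G03260 read 0.804, 0.853, 1.85 and 2.04 at 1 week and was listed at 0 in all 4-week samples, so no ratio is given. A value of 0 does not show that a transcript was absent. The neighbouring genes AT2G34540 and AT2G34530 share the brightest of the 86 rows, which also has the largest ratio, 12.5. It read 3.24, 3.08, 4.40 and 4.03 at 1 week and 0.252, 0.273, 0.270 and 0.381 at 4 weeks.

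The row for AT4G01580 and AT3G18960 was even at 1 week but less so at 4 weeks, with 1.76, 1.73, 1.87 and 1.94 against 0.127, 0.201, 0.206 and 0.292 (ratio 8.84). In contrast, the row for AT1G23980, AT5G40250 and AT3G48030 had 1.57 and 1.38 in 1-week samples 1 and 2 but 4.42 and 3.85 in samples 3 and 4. Its 4-week samples showed the same order, with 0.215 and 0.222 against 0.570 and 0.489, and the ratio of means was 7.50. In this row samples 3 and 4 were thus the higher ones at both ages, while each number kept 1 week far above 4 weeks.

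Several of these rows were near 0 in some 4-week samples. That for AT5G52410 and AT5G23890 read 0.234, 0.254, 0.319 and 0.440 at 1 week and 0.0692, 0.0187, 0 and 0.0538 at 4 weeks. With the 0 included its ratio was 8.81, from 6.61 without 4-week sample 3 to 12.9 without 4-week sample 1. The row for AT1G44542 and AT4G34180 read 0.599, 0.593, 0.685 and 0.776 at 1 week and 0.161 and 0.175 in 4-week samples 1 and 2, and was listed at 0 in samples 3 and 4. Its ratio of 7.89 depended on which 4-week sample was counted, with 5.92 without sample 3 and 12.3 without sample 2.

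The other 4 of the 12 rows with the largest separation had no sample at 0. AT1G05860, AT3G53860 and AT2G31600 share a row that read 1.44, 1.29, 1.04 and 1.01 in 1-week samples 1 to 4 and 0.201, 0.120, 0.135 and 0.0912 in 4-week samples 1 to 4 (ratio 8.74). Samples 1 and 2 were the higher ones at 1 week. The row for AT1G80280, AT1G15490 and AT3G10840 was less even, with 0.599, 1.03, 1.19 and 1.42 against 0.0679, 0.142, 0.211 and 0.0853 (ratio 8.36). That for AT5G65760 and AT2G24280 read 0.423, 0.418, 0.547 and 0.453 against 0.0716, 0.0752, 0.0337 and 0.0736 (ratio 7.24). The row for AT5G48730, AT3G53170 and AT2G17033 had the same ratio at a higher level, with 1.27, 1.25, 1.68 and 1.73 against 0.181, 0.182, 0.208 and 0.249. In each of these rows the lowest 1-week sample was at least 2 times the highest 4-week sample.

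**Figure D3:**
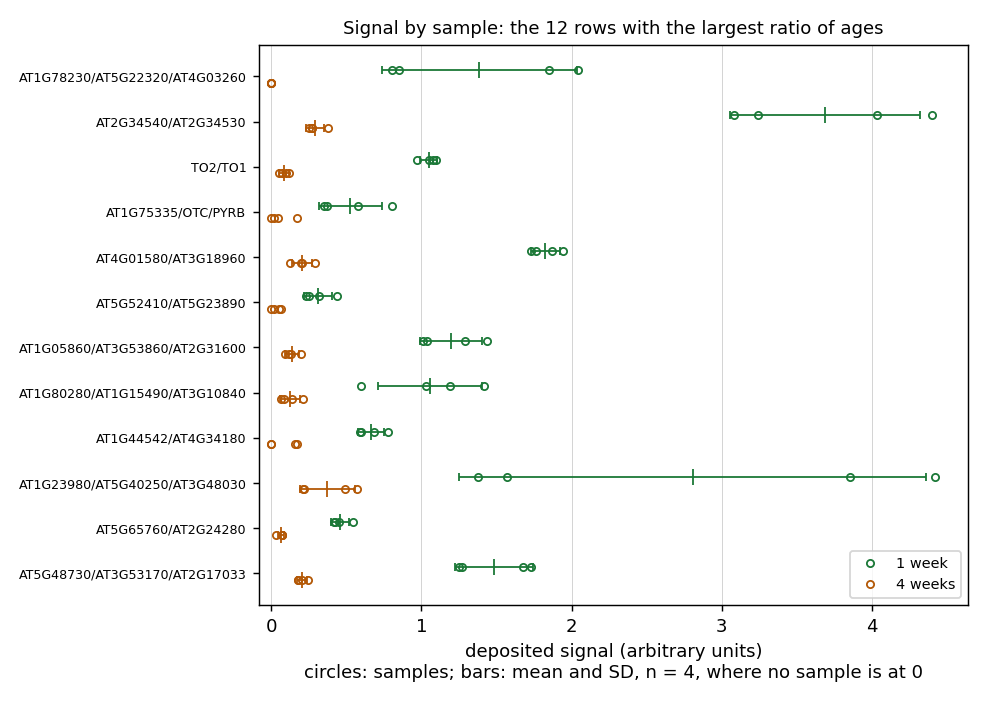
Deposited signal (horizontal, arbitrary units) of the 12 rows with the largest ratio of ages, in 1-week (green) and 4-week (orange) samples, with circles for samples and bars for mean and SD of 4 samples where none is at 0. Within each row the 4-week samples lie below the 1-week samples, and they reach 0.570 in AT1G23980/AT5G40250/AT3G48030. The 1-week samples range from 0.234 in AT5G52410/AT5G23890 to 4.42 in the former row.

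A further 57 rows name genes by locus code only. Of these, 14 had ratios from 4.08 to 6.46, with 1-week means from 0.205 to 1.88 and 4-week means from 0.0502 to 0.439. These were the rows for AT5G03880/AT4G10000, AT1G36280/AT4G18440, AT2G25330/AT2G25320, AT1G21680/AT1G21670, AT1G16630/AT2G16270, AT1G33700/AT4G10060, AT4G08330/AT2G17705, AT1G79510/AT1G16320/AT2G46220, AT5G10700/AT5G10690/AT5G10680/AT5G10660, AT4G22400/AT4G18320/AT4G18310, AT2G07440/AT2G07360/AT2G07310/AT2G07290, AT5G55970/AT4G26580, AT4G21010/AT4G20330 and AT1G80040/AT5G32440/AT5G02510. Within this set AT2G25330/AT2G25320 had nearly equal samples at 1 week (0.788, 0.809, 0.832 and 0.799, a coefficient of variation of 2.33%), the lowest of all 86 rows. AT1G16630/AT2G16270 was uneven at 4 weeks, at 0.270 and 0.214 in samples 1 and 2 and 0.0273 and 0.0761 in samples 3 and 4. Its ratio of 5.26 was 4.14 without 4-week sample 3 and 7.30 without 4-week sample 1.

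Ratios from 3.04 to 3.78 were found in 15 of the 57 rows, with 1-week means from 0.190 to 2.66 and 4-week means from 0.0524 to 0.778. They list AT5G60710/AT3G54780/AT2G38970, AT5G55210/AT4G22320, AT1G80230/AT3G15640, AT3G24860/AT2G44730, AT5G64640/AT5G09760, AT5G61200/AT5G07890, AT5G39530/AT5G39520, AT5G19210/AT3G58510/AT2G42520, AT1G74730/AT5G08050, AT5G14500/AT3G01590, AT4G17840/AT2G35260, AT3G61320/AT2G45870, AT1G31163/AT1G30930, AT1G03260/AT1G22850/AT5G19070 and AT2G10020/AT2G09990/AT2G09970. The row for AT1G31163 and AT1G30930 was split by sample number, with 0.281 and 0.270 in 1-week samples 1 and 2 and 0.629 and 0.734 in samples 3 and 4. Its lowest 1-week sample was 1.13 times its highest 4-week sample, 0.239.

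Another 10 rows had ratios from 2.51 to 2.97, with 1-week means from 0.209 to 1.74 and 4-week means from 0.0801 to 0.597. Their lists are AT4G38670/AT4G36010/AT2G17860, AT3G26480/AT2G18900, AT3G49725/AT5G57960, AT4G13500/AT2G05310, AT5G40860/AT3G27210/AT3G01860, AT1G35510/AT1G14970/AT2G01480, AT5G28500/AT3G04550, AT4G31890/AT2G27430/AT2G25130, AT1G14710/AT4G02940/AT2G48080 and AT5G27330/AT3G05130. One of them rests on 1 sample. The row for AT5G40860, AT3G27210 and AT3G01860 read 1.91 in 1-week sample 2 and 0.428, 0.607 and 0.564 in samples 1, 3 and 4, against 0.236 to 0.406 at 4 weeks. Its ratio of 2.78 was 1.69 without that sample, below the fold condition.

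The final 18 of the 57 rows had ratios from 2.07 to 2.46, with 1-week means from 0.225 to 2.46 and 4-week means from 0.107 to 1.03. They list AT5G65750/AT3G55410, AT4G31040/AT4G31030, AT1G70990/AT1G23040/AT1G02405, AT5G27880/AT5G01860, AT5G06270/AT3G11600, AT5G40700/AT3G27350, AT1G20132/AT1G20120, AT1G60410/AT1G60400, AT1G48990/AT3G18570, AT5G58930/AT3G46990, AT1G56220/AT1G54070, AT4G22030/AT4G04480, AT1G68430/AT1G66890/AT5G16200, AT3G62430/AT3G54160, AT1G11930/AT4G26860, AT3G11810/AT2G03330, AT4G04730/AT2G31590 and AT1G64450/AT4G23930. The brightest of these, for AT1G70990, AT1G23040 and AT1G02405, had 2.46 ± 0.430 at 1 week and 1.03 ± 0.165 at 4 weeks (SD, n = 4).

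No gap in the ratios marks the fold condition. Just inside it, next to the GrxC5 row, lay the row for AT1G76405, AT1G20810 and AT3G10060, with 0.422, 0.464, 0.381 and 0.369 against 0.228, 0.245, 0.170 and 0.151 (ratio 2.06). The last row inside lists AT1G05660, AT1G05650 and AT2G43890, with 0.547, 0.504, 0.744 and 0.692 against 0.272, 0.343, 0.348 and 0.274 (ratio 2.01). Samples of the ages lay close together in both without overlapping. Just outside, with no overlap of the ages either, AT4G30620/AT2G24020 read 0.720, 0.741, 0.801 and 0.832 against 0.507, 0.418, 0.375 and 0.247, a ratio just under 2. It was followed by AT1G36990/AT4G08510 at 1.99, with 0.636, 0.635, 0.584 and 0.553 against 0.310, 0.331, 0.257 and 0.312. The third, AT5G51770/AT4G25390/AT2G45590 at 1.92, read 0.640, 0.582, 0.669 and 0.830 against 0.301, 0.289, 0.382 and 0.443. Of the 86 rows, 11 dropped below a ratio of 2 without 1 of their samples, with values then from 1.69 to 1.98.

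Within an age, many of the 86 rows shared an order of samples. At 1 week, samples 3 and 4 were both above samples 1 and 2 in 48 rows, both below them in 14 and interleaved with them in 24. At 4 weeks these counts were 31, 12 and 43. Relative to the mean of its row over all samples, the median signal was 1.34 and 1.36 in 1-week samples 1 and 2, 1.62 and 1.60 in samples 3 and 4, and from 0.435 to 0.524 in the 4-week samples. The average of 1-week samples 1 and 2 exceeded that of samples 3 and 4 in 29.1% of the 86 rows. In the other 622 rows of the same kind and signal range this share was 50.5%. At 4 weeks the shares were near each other, at 36.0% of the 86 rows and 38.3% of the other rows. These differences were not tested. The likeness of samples 1 and 2, and of samples 3 and 4, has no counterpart in the labels. For each sample number the median ratio of the ages was similar, at 3.04, 2.93, 3.12 and 3.51 for numbers 1 to 4.

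**Figure D4:**
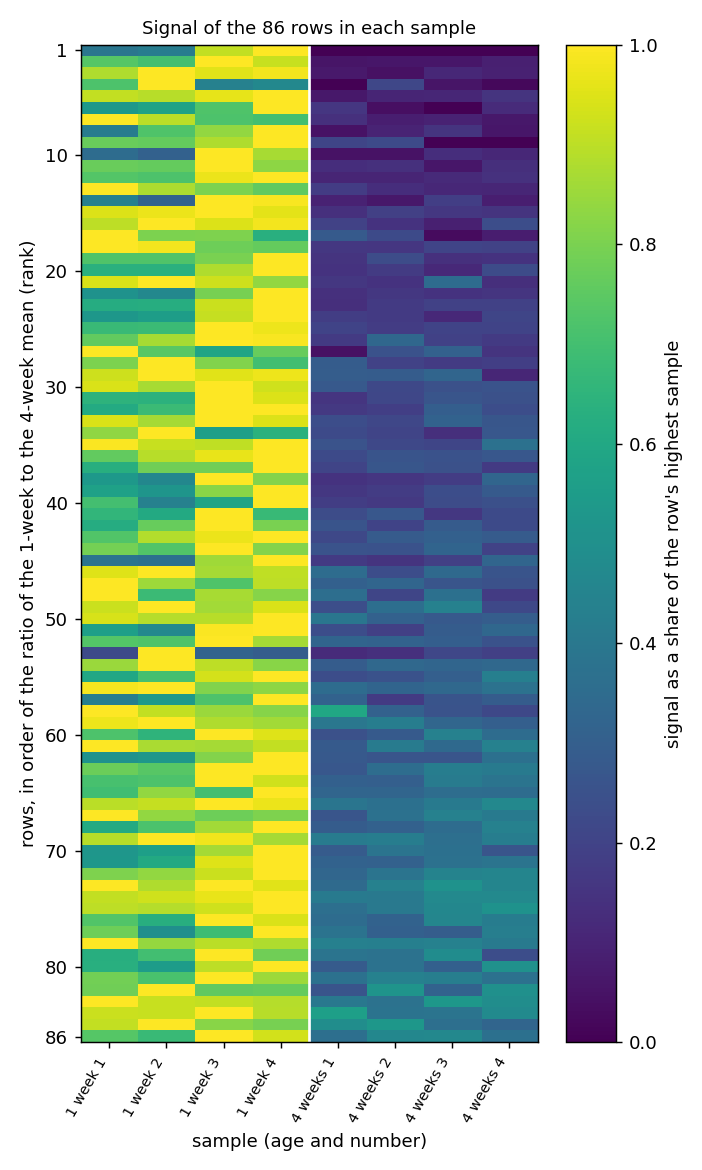
Signal of the 86 rows (vertical, in order of their ratio of ages) in each of the 8 samples (horizontal), as a share of the row's highest sample, from 0 (dark) to 1 (yellow). The highest sample of a row was 1-week sample 4 in 33 rows, sample 3 in 25, sample 2 in 16 and sample 1 in 12, and the 4-week columns become lighter toward the lower ratios.

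The replicate spread was moderate, with a median coefficient of variation of 16.0% at 1 week and 20% at 4 weeks, against 18.8% and 14.8% in the other 622 rows. The selection required ages that do not overlap and low 4-week means, which bears on these spreads, so nothing is read from the difference. In the fit across all rows, 84 of the 86 could be tested and 84 were called lower at 4 weeks (limma, adjusted p under 0.05), against 22.8% of all 740 tested rows listing several genes and 20.4% of all 2924 tested rows. Because the same contrast chose the rows, nothing is read from this count. Their log2 difference, 4 weeks minus 1 week on the normalized scale, ran from -3.93 for TO2/TO1 to -1.05 for FUG1/AT4G11160 and AT1G68430/AT1G66890/AT5G16200. Its median was -1.73, against 0.11 over all tested rows listing several genes and 0.16 over all tested rows. With samples 1 and 2, and samples 3 and 4, averaged before the fit, 69 of 84 were called lower at 4 weeks, against 10.6% of 744 tested rows listing several genes and 8.56% of all 2943 tested rows. With a pseudocount of 0.0777 added before the log, the TO2/TO1 difference was -2.94 and that of AT2G34540/AT2G34530, -3.63 without it, was then larger in size at -3.32.

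Rows of other annotation passed the same conditions about as often. They were met by 61 of 552 rows naming 1 gene in the signal range (11.1%) and by 137 of 1473 rows that are not named here (9.30%), against 12.1% of rows listing several genes. The median ratio was 3.20 in the former and 3.01 in the latter, against 3.26. These shares were not compared by a test.

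The genes of a row were mostly apart in the genome. In 13 of the 86 rows (15.1%) at least 2 listed genes were direct neighbours in the order of protein-coding genes, against 11.4% of the other 622 rows. With up to 10 genes between them the shares were 17.4% and 16.9%. Neighbours include AT2G34540 and AT2G34530, OTC and AT1G75335, BGLU46 and BGLU45, AT2G25330 and AT2G25320, and AT5G39530 and AT5G39520. All genes of a row were on 1 chromosome in 30.2% of the 86 rows and 28.1% of the others, so the share was near that of comparable rows. Most rows listed 2 genes (55) or 3 genes (27), while 3 rows listed 4 and 1 row listed 5. Where more than 1 gene of a row has a symbol, the names are of the same family in TO2/TO1, BGLU46/BGLU45, PRA1.G1/PRA1.G2, AAE15/AAE16 and the BUB3 and BZIP rows. OTC and PYRB differ in name and share the carbamoyl transfer reaction.

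Some genes of the 86 rows are also on companion rows, that is, other rows of the array that list some of the same genes. Of the 86 rows, 36 share a gene with another row and 50 do not. There were 41 companion rows outside the 86. In 8 of these 41 (19.5%) every 1-week sample was above every 4-week sample, against 16.5% of all rows of the array. In 5 the ages were separated the other way, and in 28 they overlapped. The share over all rows includes the 86 selected rows, which the 41 leave out, so these shares come from unlike sets and nothing is read from their likeness. On most of the 41 companion rows the ages were not separated.

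Companions with exactly the same list exist for 16 of the 86 rows. Of these 16 companion rows, 4 (25.0%) were higher at 1 week in every sample, 2 were higher at 4 weeks in every sample and 10 overlapped, and the ratio of the means had a median of 0.872 (from 0.527 to 2.55). The companion of TO2/TO1 was dim, with 0.0269, 0.00827, 0.00422 and 0.219 at 1 week and 0, 0, 0.226 and 0.265 at 4 weeks. Samples 1 and 2 were near 0 there at both ages, so it shows no order of ages. For GrxC5/AT2G20270 the companion was ordered the other way, with 0.532, 0.331, 0.485 and 0.563 at 1 week and 0.872, 0.702, 0.830 and 0.833 at 4 weeks. The rows of this pair of genes thus disagree in direction with no overlap in either row.

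The same held for AT5G28500/AT3G04550, whose dim row was higher at 1 week (0.209 ± 0.0774 against 0.0801 ± 0.0199, SD, n = 4) and whose brighter companion was higher at 4 weeks (0.418 ± 0.0777 against 0.596 ± 0.0327, SD, n = 4). The companion of AAE15/AAE16 overlapped, with 0.225 ± 0.0598 and 0.260 ± 0.0337 (SD, n = 4). In 4 lists both rows were higher at 1 week. AT2G25330/AT2G25320 had ratios of 6.02 and 2.55, AT4G13500/AT2G05310 had 2.80 and 1.84, AT4G04730/AT2G31590 had 2.07 and 1.73, and AT4G22030/AT4G04480 had 2.17 and 1.27. For these 4 lists the direction of the age difference does not depend on which of the rows is read.

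**Figure D5:**
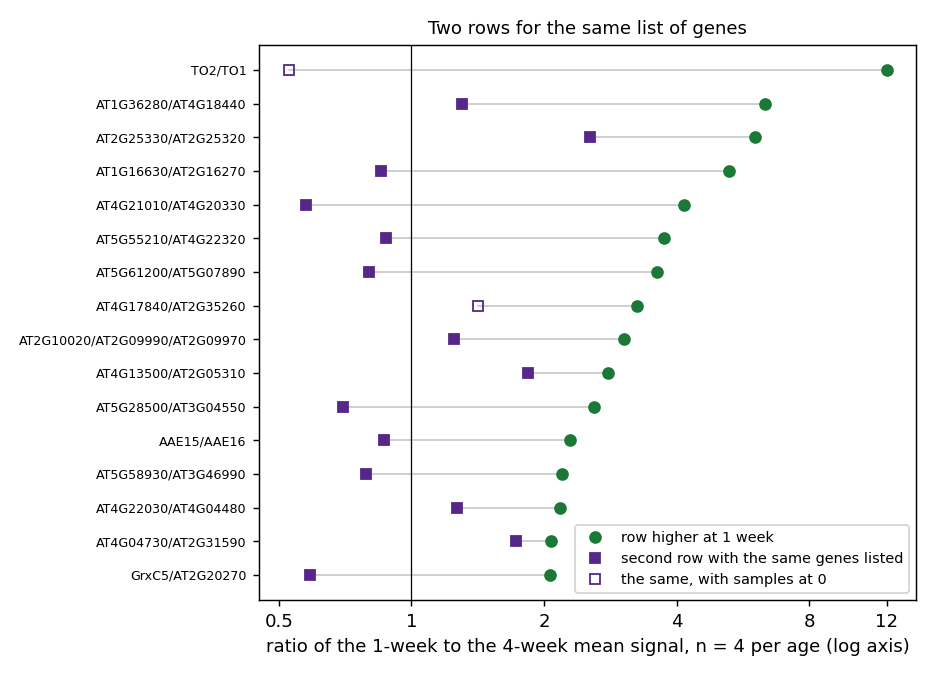
Ratio of the 1-week to the 4-week mean signal (horizontal, log axis, 4 samples per age) for the 16 lists of genes held by a selected row (green circles) and by a companion row (purple squares, open where samples are at 0). The companions scatter around 1, from 0.527 for TO2/TO1 to 2.55 for AT2G25330/AT2G25320, and all lie left of their selected row. The selected rows were chosen for a ratio of at least 2, and the rule left the companions out. The order within a pair was thus largely set by the selection. The companion of AT2G25330/AT2G25320 met the order and fold conditions, but its mean signal was outside the selected range.

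Some companions hold only part of a list. That for AT1G05860 alone read higher at 1 week, with 0.380 ± 0.0413 against 0.168 ± 0.0425 (SD, n = 4; ratio 2.25), while the row for AT3G53860 and AT2G31600 read higher at 4 weeks, with 0.566 ± 0.119 against 0.945 ± 0.0884 (SD, n = 4). The row that lists all 3 genes was higher at 1 week, as the selection required, so its direction does not show which gene it measures. AT1G74730 alone was also higher at 1 week, 1.28 ± 0.470 against 0.454 ± 0.0809 (SD, n = 4). Its row with AT5G08050, selected for that direction, read 2.22 ± 0.776 against 0.672 ± 0.125 (SD, n = 4). At 1 week both rows were highest in sample 4, but their order otherwise differed. AT1G74730 alone was lowest in sample 1, at 0.852. Its row with AT5G08050 was lowest in sample 2, at 1.43, and read 2.28 in sample 1.

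The order of the ages varied among other companions. AT1G35510 alone had 0.594 ± 0.0509 and 0.673 ± 0.0602 (SD, n = 4), higher at 4 weeks in every sample. The ages almost touched in it, with a highest 1-week sample of 0.623 and a lowest 4-week sample of 0.624. OTC and PYRB without AT1G75335 overlapped, with 0.160 ± 0.0463 and 0.201 ± 0.0273 (SD, n = 4). AT1G75335 with AT5G60030 was higher at 1 week (0.476 ± 0.0477 against 0.341 ± 0.0436, SD, n = 4), and with its neighbour AT1G75340 it overlapped (0.596 ± 0.0682 against 0.732 ± 0.0971, SD, n = 4). The row for BZIP61 and BZIP34 alone was higher at 1 week, the direction required of the larger row. Its level was low, at 0.107 ± 0.00888 against 0.0720 ± 0.0180 (SD, n = 4). Of the 10 companions that name 1 gene, 2 were higher at 1 week, 2 were higher at 4 weeks and 6 overlapped. Which of its genes each of the 86 rows measured was not tested.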

How the data were processed

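The deposited table holds 1 linear intensity per row (3439) and sample (8). The scanner, background correction and scaling used by the authors are not given in the sources read here. Ages and sample numbers come from the sample titles. Genes come from the GEO platform annotation, and all 207 were found in a RefSeq gene table of the TAIR10.1 assembly, which gave symbols, synonyms and gene order. That table has no product text, so function words were searched in symbols and synonyms. No sequence was available for printing and no coordinates are given, since the build of the array design is not stated.

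The selection used deposited means, with 0 included. A fit across all rows used log2 signals with 0 as missing, quantile normalized because array medians differed by 0.127 (limit 0.1), in rows with 3 measured samples per age, without 2 rows at the ceiling in all samples (left out after seeing the data). The linear model and its moderated test came from limma 3.58.1 (R 4.3.3), with Benjamini-Hochberg adjustment at 0.05, and was tested on simulated data. Members, lists and tests were chosen with earlier results of these data known. Named individually were the 12 rows of largest ratio, classes with 2 or more rows, the 3 rows nearest the fold condition on each side and, chosen after values were seen, rows with a gene symbol (1 of these 17 is counted but not reported here), rows that vary most or least, and companion rows. Deviations of same-numbered samples correlated at 0.425 to 0.527 in all 4 pairs over 2814 rows, against 0.343 and 0.397 between numbers 3 and 4, 0.18 and 0.229 between 1 and 2, and -0.419 to -0.351 between these sets. As all 4 were over 0.1, numbers were treated as a possible pairing, used only in an alternative fit with the number as a block. The main fit used age alone. This pairing comes from the data, and much of it is shared by the sets. Alternatives are given at the end. The number of arrays limits the precision.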

Additional observations from a re-analysis of the deposited data

Results flagged for a closer look

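One sample lay apart from the other 3 of its age, by Dixon's criterion (the gap to the nearest sample as a share of the whole range), in 12 of 171 groups of 4 checked; chance alone gives about 1 in 20. In 1-week plants, AT5G40860/AT3G27210/AT3G01860 had 1.91 in sample 2 against 0.428 to 0.607 in the others. BGLU46/BGLU45 had 0.345 in sample 3 against 0.209 to 0.232, and AT4G04730/AT2G31590 had 0.399 in sample 2 against 0.302 to 0.313.

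In 4-week plants a high sample was found in 5 rows. AT2G34540/AT2G34530 had 0.381 in sample 4, AT4G08330/AT2G17705 had 0.221 in sample 2 and AT1G79510/AT1G16320/AT2G46220 had 0.538 in sample 3. AT4G21010/AT4G20330 had 0.285 in sample 2 and AT4G31040/AT4G31030 had 0.151 in sample 4. A low sample was found in 4 rows. AT5G65760/AT2G24280 had 0.0337 in sample 3, AT5G55970/AT4G26580 had 0.401 in sample 2, AT5G60710/AT3G54780/AT2G38970 had 0.0763 in sample 4 and AAE15/AAE16 had 0.225 in sample 3.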

How the results depend on the processing

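The selection took 89 rows on quantile-normalized and 87 on median-scaled values, with 86 and 85 of the 86 rows among them. It took 48 rows at a 3-fold condition, 115 at 1.5-fold and 96 without signal limits. Without any 1 sample it took 82 to 91 rows, with 80 to 86 of the 86 among them. The fit called 346 of 740 rows listing several genes and 1337 of all 2924. With the sample number as a replicate block it called 421 and 1656, which changed no call among the 84 tested rows. With samples 1 and 2, and samples 3 and 4, averaged, it called 102 and 392, with fewer values per age. In that limma fit 15 of the 84 rows missed the threshold, at adjusted p from 0.0507 to 0.107. Among them were AT1G75335/OTC/PYRB (0.107), AT1G23980/AT5G40250/AT3G48030 (0.0566), FUG1/AT4G11160 (0.0769), AT1G76405/AT1G20810/AT3G10060 (0.0796) and AT1G05660/AT1G05650/AT2G43890 (0.0595). The other alternatives (both other scalings, a pseudocount of 0.0777, no dim tercile, leaving out each sample) kept both counts within 1.5 times. AT5G40860/AT3G27210/AT3G01860 missed the threshold with the pseudocount (0.0851) and without any 1 of 6 samples (0.0517 to 0.0975), and its ratio was 1.69 without 1-week sample 2. Of the 27 named rows that were fitted, 14 moved toward 0 with the pseudocount by more than the spread between samples, such as TO2/TO1 from -3.93 to -2.94 and AT5G52410/AT5G23890 from -3.18 to -1.97 (log2). None moved that far under the other alternatives, and none changed sign.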
